A study of Mus musculus with 3 samples.

Results

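The nuclear genes of the oxidative phosphorylation (OXPHOS) system were followed in healing mouse skin wounds by droplet-based single-cell RNA sequencing. Members were taken by gene symbol. They were the *Ndufa*, *Ndufb*, *Ndufc*, *Ndufs* and *Ndufv* genes of complex I, *Sdha* to *Sdhd* of complex II, the *Uqcr* genes of complex III, *Cox4* to *Cox8* of complex IV and the *Atp5* genes of complex V, without *Ndufa4l2*, the *Ndufaf* assembly factors and pseudogenes. A member also needed at least 100 UMIs (unique molecular identifiers, which count captured mRNA molecules) over the 3 libraries. The name rule took 84 of 32285 genes and 81 of them passed the UMI minimum, namely 36 genes of complex I, 4 of complex II, 8 of complex III, 16 of complex IV (with *Ndufa4*, whose product is a complex IV subunit) and 17 of complex V. *Cox8b* with 82 UMIs, *Cox7b2* with 4 and *Cox8c* with 0 stayed outside, while *Cox6a2* with 686 UMIs, *Cox7a1* with 772 and *Atp5s* with 826 were the lowest inside. Further genes were left out by the rule and are given beside the members. They are *Ndufb1-ps* (named as a pseudogene, but listed by RefSeq as *Ndufb1*, a symbol of the complex I family), *Usmg5* (a complex V subunit under another name) and *Atpif1* (the inhibitor of complex V).

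Oxidative phosphorylation makes ATP at the inner mitochondrial membrane. Complexes I and II take electrons from NADH and succinate, complexes III and IV pass them on to oxygen while pumping protons, and complex V, the ATP synthase, uses the proton gradient. Complexes I, III, IV and V are built from both nuclear and mitochondrially encoded subunits, whereas complex II is wholly nuclear, so the 13 mitochondrially encoded protein genes (mt- genes) are given beside the members. In wounds, inflammatory macrophages and newly activated fibroblasts are known for strong use of glycolysis, the route that makes ATP in the cytosol.

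The wounds were skin wounds of adult male C57BL/6J mice, an inbred laboratory strain, taken on Day 3, Day 7 or Day 14 after injury, with no unwounded group in these libraries. The study used the libraries to follow the cell populations of the wound through repair. Wounds were pooled and each day gave 1 library, so differences between days have no replicates behind them and no p-value is given. The libraries held 5158, 22924 and 16611 cell barcodes and between 38133650 and 120940799 UMIs. Members took 1.15%, 1.16% and 1.22% of all UMIs on Days 3, 7 and 14, and all 81 were detected in each library. The mt- genes took 5.33%, 3.00% and 2.54% of UMIs, and *Gm42418*, a transcript that overlaps ribosomal RNA sequence, took 3.60%, 11.7% and 6.42%. Between 19 and 111 barcodes were shared by any pair of libraries.

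Clustering of 37460 cells without the members, the mt- genes, ribosomal protein genes and *Gm42418* gave 33 clusters, which were named "X-like" from marker genes. Levels are given as CPM, which scales the UMIs of a gene to a fixed total of UMIs in the cells concerned. The chemistry reads the 3′ end of each transcript, so counts mark molecules and were not divided by length. Intervals are 95% intervals (exact Poisson for CPM, exact binomial for shares and ratios) and cover counting error only. The classes compared most were fibroblast-like cells (411, 5995 and 7414 cells on Days 3, 7 and 14) and macrophage-like cells (2551, 8496 and 2979 cells). Fibroblast-like cells came mainly from clusters 7 (57.7%) and 20 (39.9%, led by the division genes *Top2a* and *Mki67*) on Day 3, clusters 1, 7 and 11 on Day 7 and clusters 0, 9 and 1 on Day 14. Macrophage-like cells came mainly from cluster 3 on Day 3, clusters 2, 4 and 6 on Day 7 and clusters 5, 13 and 6 on Day 14. Fibroblast markers summed to 67720, 115979 and 138309 CPM in fibroblast-like cells, and to 413, 3629 and 5301 CPM in macrophage-like cells, which themselves held 8235, 13231 and 17891 CPM of macrophage markers. The part of this foreign RNA in the differences between days was not tested.

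Promoter sequences show what the members share outside the measured counts. A RefSeq table (build GRCm38.p6) held promoters, each 300 bases with 250 before the transcript start, for 65 of the 81 members. Of these 65, 30.8% held the NRF1-type letters GCGCANGCG on either strand, against 7.03% of 27025 genes in the table. The ETS-type letters CCGGAAG were in 24.6% of members and 9.93% of all genes, and the YY1-type letters AANATGGCG in 15.4% and 2.76%. At least 1 of the 3 was in 58.5% of members and 17.2% of all genes. NRF1, GABP (an ETS factor) and YY1 are known regulators of OXPHOS genes, and a match of letters is a description and not a binding site. Member promoters were also richer in G and C, with a median of 58.3% against 52.8% and 19 against 7 CG dinucleotides, and the part of this base composition in the shares was not tested. The 100 bases before the start follow for 6 members whose values are compared later, all on the minus strand, with matched letters in capitals. The 3 genes for the ATP synthase c subunit lie at chr11:96075632-96075731 (*Atp5g1*), chr15:102671048-102671147 (*Atp5g2*) and chr2:73911327-73911426 (*Atp5g3*), the paired isoforms of complex IV subunit 6b at chr7:30626115-30626214 (*Cox6b1*) and chr7:4753095-4753194 (*Cox6b2*), and *Sdha*, the catalytic subunit of complex II, at chr13:74350241-74350340.
Atp5g1: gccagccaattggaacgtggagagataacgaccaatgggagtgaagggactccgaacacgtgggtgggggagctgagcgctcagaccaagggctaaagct
Atp5g2: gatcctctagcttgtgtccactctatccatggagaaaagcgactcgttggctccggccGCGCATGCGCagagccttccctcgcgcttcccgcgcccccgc
Atp5g3: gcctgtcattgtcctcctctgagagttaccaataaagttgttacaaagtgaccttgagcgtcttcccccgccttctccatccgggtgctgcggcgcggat
Cox6b1: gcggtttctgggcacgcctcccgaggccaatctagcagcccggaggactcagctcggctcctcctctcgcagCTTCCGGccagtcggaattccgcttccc
Cox6b2: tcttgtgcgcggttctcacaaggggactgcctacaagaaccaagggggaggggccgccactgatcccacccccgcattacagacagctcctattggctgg
Sdha: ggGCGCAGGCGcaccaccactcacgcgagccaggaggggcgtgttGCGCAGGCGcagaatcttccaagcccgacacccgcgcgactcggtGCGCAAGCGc
*Atp5g2* held overlapping NRF1-type matches on both strands, *Cox6b1* an ETS-type match (read on the other strand) and *Sdha* 3 NRF1-type matches, while *Atp5g1* and *Cox6b2* held none of the 3 in this window and *Atp5g3* held its NRF1-type match after the start.

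The first comparison asked how much of the mRNA of each cell class was nuclear OXPHOS mRNA on each day. Fibroblast-like cells held 12010 CPM (11962 to 12059), 11817 CPM (11790 to 11844) and 11621 CPM (11596 to 11646) of members on Days 3, 7 and 14. Macrophage-like cells held 11805 CPM (11744 to 11867), 11175 (11134 to 11216) and 12956 (12893 to 13020) in the same order. Both classes thus kept between 11175 and 12956 CPM, a narrower band than the mt- and glycolysis genes below. Their depth differed between days, with medians of 44272, 10292 and 9582 UMIs per fibroblast-like cell and 4246, 2716 and 3732 per macrophage-like cell, and the part of depth was not tested. Dendritic cell-like cells held 11582, 13384 and 16212 CPM in the same order. On Days 7 and 14, T cell-like cells held 10673 and 13963 CPM, endothelial cell-like cells 13092 and 14425, pericyte-like cells 13870 and 12255, and epithelial cell-like cells 16005 and 18687. Fibroblast markers went from 6699 to 17298 CPM in the T cell-like and from 5994 to 13258 CPM in the endothelial cell-like cells over these days, and stood at 389, 3413 and 5205 CPM in the dendritic cell-like cells, and their part in these levels was not tested. Epithelial cell-like cells were the highest class of both libraries, with 41 cells behind the Day 7 value and fibroblast markers at 8041 and 7641 CPM. Neutrophil-like cells were the lowest class of the Day 14 library and of each earlier one, with 3181, 4389 and 5395 CPM. Fibroblast markers in the neutrophil-like cells went up in the same order (828, 10336 and 12427 CPM), the Day 14 value rests on 21 cells, and the part of that foreign RNA was not tested. The 32 mast cell-like cells of Day 7 held 5577 CPM.

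The mt- genes moved differently from the members. Their sum was 35907, 24820 and 17102 CPM in fibroblast-like cells and 39751, 31144 and 26658 CPM in macrophage-like cells on Days 3, 7 and 14. The sum was lower in each later library of both classes, although 7 of the 13 genes were higher on Day 14 than on Day 7 in macrophage-like cells, and the sum was also lower at each step in dendritic cell-like cells (39941, 28398 and 20072 CPM). As a result, the log2 ratio of nuclear to mt- UMIs went from -1.58 through -1.07 to -0.56 in fibroblast-like cells and from -1.75 through -1.48 to -1.04 in macrophage-like cells. This ratio does not depend on the total UMIs of a class. Between Days 7 and 14 it was higher by 0.51 in fibroblast-like and by 0.44 in macrophage-like cells, and on Day 14 it was 0.48 higher in fibroblast-like than in macrophage-like cells. The scaling alternatives cannot change these differences. None of the other alternatives tried turned them, and they ranged from 0.49 to 0.54, from 0.25 to 0.44 and from 0.32 to 0.75. Cells above 10% mt- UMIs had been removed, which caps the mt- level of every class.

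**Figure D1:**
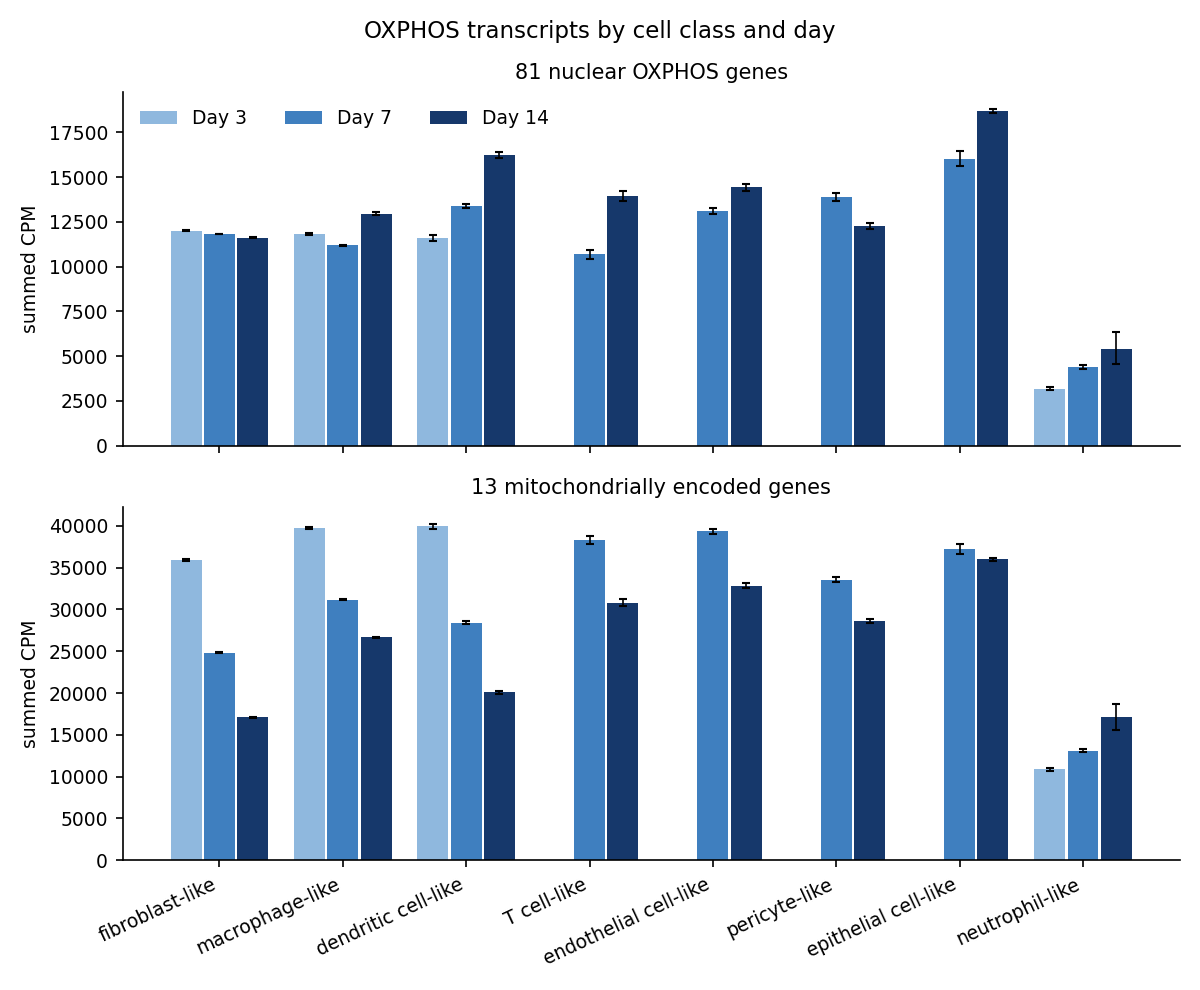
Summed CPM of the 81 nuclear OXPHOS genes (top) and the 13 mitochondrially encoded genes (bottom) by cell class, with bars for the Day 3, Day 7 and Day 14 libraries and 95% Poisson intervals; classes under 20 cells in a library have no bar. Nuclear levels of fibroblast-like and macrophage-like cells lie between 11175 and 12956 CPM on every day, while their mitochondrially encoded levels are lower in each later library.

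The ratio between days was then computed for the sum of members. In macrophage-like cells it was -0.08 on the log2 scale (-0.09 to -0.07) for Day 7 over Day 3, and 0.21 (0.20 to 0.22) for Day 14 over Day 7. In fibroblast-like cells these ratios were -0.02 (-0.03 to -0.02) and -0.02 (-0.03 to -0.02). The macrophage-like difference between Days 7 and 14 was above 0 under every alternative tried, from 0.08 to 0.32. The other 3 turned sign with the scaling: without the 50 most abundant genes, the Day 7 to Day 3 ratios were 0.18 in macrophage-like and 0.20 in fibroblast-like cells, and relative to the median of all genes compared the fibroblast-like ratio of Day 14 to Day 7 was 0.13. *Gm42418* alone moved from 34472 through 93157 to 56747 CPM in fibroblast-like cells and from 38778 through 161098 to 92452 CPM in macrophage-like cells, and its part in these ratios was not separated from that of other abundant genes.

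Few members passed a 1.5-fold difference between days on this scale. Genes with at least 10 UMIs in both libraries were compared. In macrophage-like cells 2 of 80 members were at least 1.5-fold higher on Day 7 than on Day 3 (14.0% of all genes were) and 1 was lower (15.8% of all genes). From Day 7 to Day 14, 4 of 80 were higher (12% of all genes) and 2 were lower (16.1%). The members' median log2 ratios were -0.02 and 0.20, beside -0.04 and -0.10 for all genes. In fibroblast-like cells 4 of 80 were higher on Day 7 than on Day 3 (15% of all genes) and 13 were lower (24.1%). From Day 7 to Day 14, 2 of 80 were higher (12%) and 5 were lower (20%). The medians were 0.00 and -0.05, beside -0.15 and -0.16 for all genes. Relative to these all-gene medians the fibroblast-like counts became 10 higher and 6 lower for Day 7 over Day 3 (19.3% and 18.1% of all genes), and 6 higher and 1 lower for Day 14 over Day 7 (15.9% and 13.7%), so the direction that held more members depended on the scaling. All genes include many scarcer than the members, and the members were not matched to genes of like abundance. Without the 50 most abundant genes, the counts for Day 7 over Day 3 became 12 higher and 0 lower in macrophage-like cells (24.6% and 7.97% of all genes) and 13 higher and 6 lower in fibroblast-like cells (22.0% and 15.5% of all genes). For macrophage-like Day 14 over Day 7 the counts became 3 higher and 5 lower without the 50 most abundant genes. They became 8 higher and 2 lower relative to the all-gene median. The direction that held more members thus depended on the scaling there too. Shares of all genes were not computed for that comparison under these scalings. The Day 7 library enters both comparisons of a class.

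**Figure D2:**
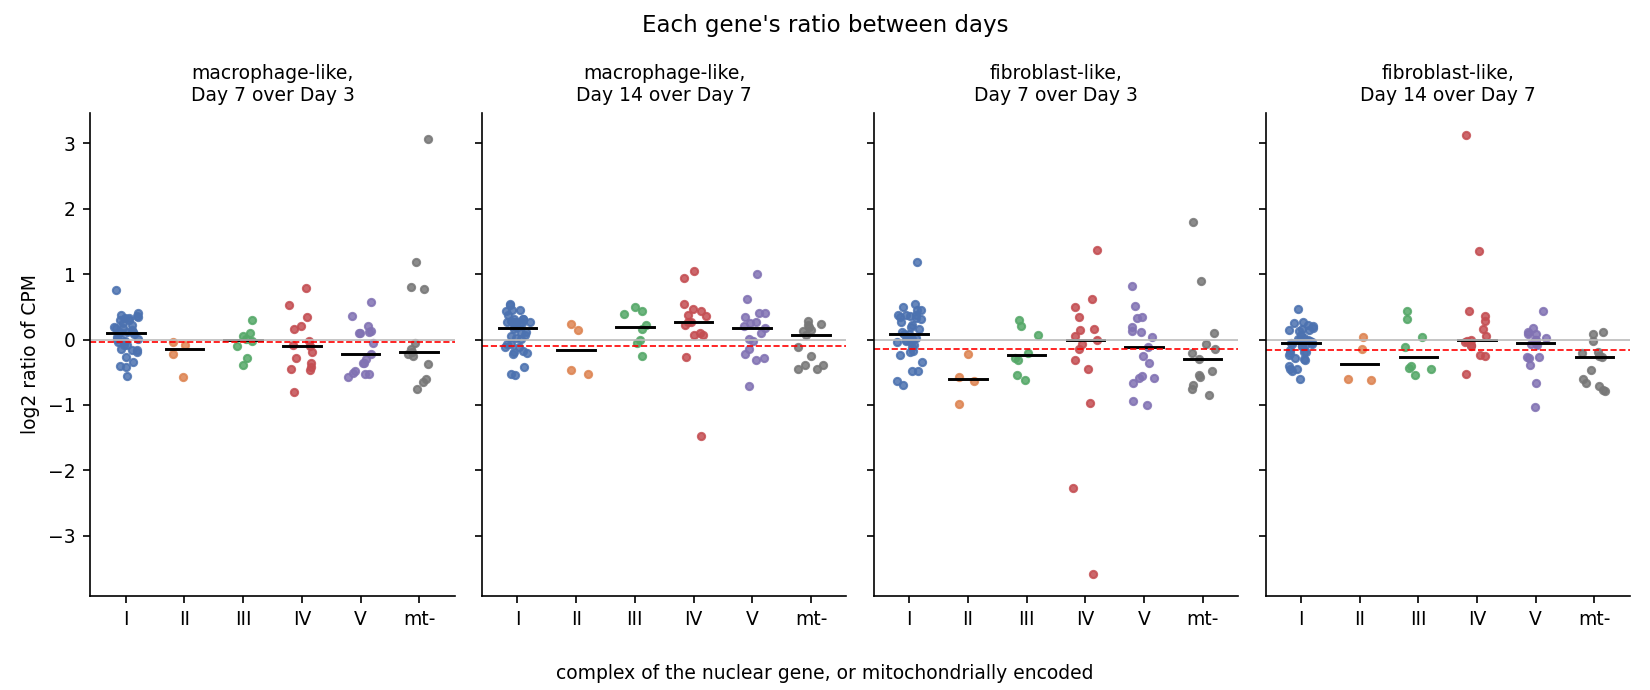
Log2 ratio of CPM between days for each nuclear member by complex (I to V) and for each mitochondrially encoded gene (mt-), in macrophage-like and fibroblast-like cells; points are genes, black bars medians, the grey line 0 and the red dashed line the median of all genes compared. Most members lie within 1.5-fold of 0, complex II lies below the other complexes in fibroblast-like cells, and mt-Atp8 is the highest mt- point for Day 7 over Day 3.

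Complex I held 36 of the members, of which 1 was at least 1.5-fold higher and 2 were lower for Day 7 over Day 3 in fibroblast-like cells (15% and 24.1% of all genes), or 5 and 0 relative to the median of all genes (19.3% and 18.1%). The 36 had a median log2 ratio of 0.10 (Day 7 over Day 3) and 0.18 (Day 14 over Day 7) in macrophage-like cells, and of 0.09 and -0.06 in fibroblast-like cells. *Ndufs1*, the large iron-sulfur subunit, stood at 38.6, 23.8 and 15.7 CPM in fibroblast-like cells on Days 3, 7 and 14 and at 30.6, 27.3 and 19 in macrophage-like cells. It was lower in each later library of both classes on this scale, but the macrophage-like Day 7 to Day 3 log2 ratio turned from -0.16 to 0.09 without the 50 most abundant genes. *Ndufa10*, an accessory subunit, stood at 77.4, 55.6 and 40.6 CPM in fibroblast-like and at 57.9, 59.5 and 40.8 CPM in macrophage-like cells. *Ndufv1*, which binds the NADH-oxidising flavin, was level in fibroblast-like cells (40.5, 38.0 and 35.5 CPM) and stood at 18.4, 22.6 and 26.1 CPM in macrophage-like cells, below the fibroblast-like level on each day.

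The small accessory subunits of complex I went the other way in part. *Ndufa13* stood at 123, 279 and 271 CPM in fibroblast-like cells and at 103, 174 and 212 CPM in macrophage-like cells. For Day 7 over Day 3 its log2 ratio was 1.18 (1.12 to 1.24) in the first class, the highest of the members after the scarce *Cox6b2*, and 0.76 (0.66 to 0.85) in the second, the highest after *Cox7b*. *Ndufa13* overlaps *Yjefn3* on the same strand, the sole such overlap among the members, so its counts are uncertain. *Ndufa1*, a small subunit of the membrane arm, stood at 77.4, 106 and 146 CPM in fibroblast-like cells and 76.5, 98.1 and 134 CPM in macrophage-like cells, higher at each step. *Ndufb9* stood at 110, 141 and 133 CPM in fibroblast-like and 92.9, 91.8 and 119 CPM in macrophage-like cells. *Ndufab1*, the mitochondrial acyl carrier protein, held 84.4, 83.4 and 78.7 CPM in fibroblast-like cells and 48.1, 60.6 and 73.0 CPM in macrophage-like cells. *Ndufc1* stood at 130, 132 and 132 CPM in fibroblast-like cells. *Ndufs7*, a core and not an accessory subunit, stood at 63.3, 71.1 and 83.0 CPM there.

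Complexes II and V both took a smaller share of the members' UMIs on each later day in the main classes, and complex II is described first. Its 4 genes summed to 295, 196 and 153 CPM in fibroblast-like cells and to 274, 241 and 208 CPM in macrophage-like cells on Days 3, 7 and 14. As a share of nuclear OXPHOS UMIs, which the total UMIs do not touch, complex II was 2.46%, 1.66% and 1.32% in fibroblast-like, 2.32%, 2.16% and 1.60% in macrophage-like and 2.14%, 1.63% and 1.18% in dendritic cell-like cells. Within clusters the share was lower on Day 14 than on Day 7 in 11 of 11 named clusters with at least 100 cells on both days, and lower on Day 7 than on Day 3 in 6 of 8. The clusters of a day share 1 library and are not replicates. *Sdha*, the flavoprotein that oxidises succinate, stood at 92.8, 59.6 and 39.1 CPM in fibroblast-like cells and at 91.9, 89.2 and 61.8 CPM in macrophage-like cells. *Sdhc*, a membrane anchor, stood at 87.1, 58.4 and 38.0 CPM in fibroblast-like cells and 80.8, 69.1 and 50.2 CPM in macrophage-like cells. Both were thus lower in each later library of both classes on this scale, whereas without the 50 most abundant genes their macrophage-like Day 7 to Day 3 log2 ratios were 0.21 and 0.03. The other anchor, *Sdhd*, was highest on Day 3 (58.7, 29.5 and 26.7 CPM in fibroblast-like cells, 47.0, 31.4 and 34.6 CPM in macrophage-like cells). *Sdhb*, the iron-sulfur subunit, changed least, with 56.2, 48.3 and 49.5 CPM and 54.3, 51.5 and 60.9 CPM.

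Complex III kept its place among the members, with 10.2% to 10.5% of nuclear OXPHOS UMIs in both classes on each day. *Uqcrh*, the hinge protein and the most abundant member of fibroblast-like cells on Day 14, stood at 332, 384 and 517 CPM there and at 422, 348 and 472 CPM in macrophage-like cells. *Uqcrfs1*, the Rieske iron-sulfur subunit, was lowest on Day 7 in both classes (57.4, 37.4 and 46.5 CPM, and 62.1, 47.4 and 67.2 CPM). The core subunits *Uqcrc1* (66.1, 54.2 and 40.1 CPM) and *Uqcrc2* (90.0, 61.9 and 46.7 CPM) were lower in each later fibroblast-like library, while *Uqcrc1* stood at 48.7, 49.2 and 55 CPM in macrophage-like cells. *Uqcr10* (141, 174 and 161 CPM) and *Uqcr11* (190, 152 and 111 CPM) went in different directions from Day 3 to Day 7 in fibroblast-like cells.

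Complex IV, cytochrome c oxidase, includes both abundant subunits and scarce tissue isoforms. Of the abundant subunits, *Cox8a* stood at 226, 319 and 432 CPM in fibroblast-like cells and at 195, 281 and 540 CPM in macrophage-like cells. For Day 14 over Day 7 its macrophage-like log2 ratio was 0.94 (0.89 to 0.99), and it was higher at each step in both classes. *Cox6c* did the same, with 326, 413 and 503 CPM and 269, 312 and 375 CPM. *Cox6a1*, the widely expressed isoform of subunit 6a, went down at each step, from 311 through 159 to 110 CPM in fibroblast-like cells and from 208 through 150 to 124 CPM in macrophage-like cells. *Cox4i1*, a regulatory subunit that binds ATP, stood at 418, 400 and 377 CPM and at 599, 438 and 459 CPM. *Cox7b* was higher on Day 7 than on Day 3 (151, 232 and 198 CPM, and 135, 232 and 248 CPM), with a macrophage-like log2 ratio of 0.79 (0.71 to 0.87). *Cox5a*, a subunit on the matrix side, differed between the classes on each day, at 193, 155 and 130 CPM in fibroblast-like and 334, 261 and 303 CPM in macrophage-like cells. *Cox5b*, *Cox6b1*, *Cox7c* and *Ndufa4* were within 1.5-fold between neighbouring days in fibroblast-like cells, at 170 to 176, 297 to 319, 354 to 393 and 331 to 370 CPM.

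Complex V, the ATP synthase, made up 32.7%, 29.4% and 28.6% of nuclear OXPHOS UMIs in fibroblast-like and 31.7%, 29.4% and 28.9% in macrophage-like cells on Days 3, 7 and 14. *Atp5a1* and *Atp5b* encode the alpha and beta subunits of the catalytic head. In fibroblast-like cells *Atp5a1* stood at 380, 199 and 126 CPM and *Atp5b* at 366, 230 and 175 CPM on Days 3, 7 and 14. In macrophage-like cells *Atp5a1* stood at 240, 206 and 166 CPM and *Atp5b* at 175, 187 and 184 CPM, so *Atp5b* was level there. The 2 genes were 1.5-fold or more higher in fibroblast-like than in macrophage-like cells on Day 3 alone. *Atp5d*, the delta subunit of the central stalk, moved the other way, with 111, 195 and 264 CPM in fibroblast-like cells and 101, 130 and 260 CPM in macrophage-like cells. For Day 14 over Day 7 its log2 ratio was 1.00 (0.93 to 1.07) in macrophage-like and 0.44 (0.40 to 0.47) in fibroblast-like cells. *Atp5e*, the epsilon subunit of the same stalk, stood at 362, 416 and 439 CPM and at 459, 330 and 420 CPM. *Atp5k*, subunit e of the membrane part, was lower in each later library (178, 139 and 68.0 CPM, and 191, 148 and 90.8 CPM), as was *Atp5mpl*, a small proteolipid of that part (340, 229 and 196 CPM in macrophage-like cells), while *Atp5l*, subunit g, stood at 359, 389 and 419 CPM and at 511, 494 and 594 CPM.

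The c subunit of the rotor is made from 3 genes, *Atp5g1*, *Atp5g2* and *Atp5g3*, which encode the same mature protein behind different import sequences, so their shares show which gene supplied the mRNA and do not depend on the total UMIs. On Days 3, 7 and 14 *Atp5g1* made up 16.3% (15.7 to 16.8%), 29.4% (28.9 to 29.8%) and 31.4% (31.0 to 31.9%) of the c-subunit UMIs of fibroblast-like cells. In macrophage-like cells its share was 10.0% (9.35 to 10.7%), 19.2% (18.5 to 19.9%) and 23.9% (23.0 to 24.9%). *Atp5g3* went from 40.0% through 28.9% to 25.1% in fibroblast-like and from 36.6% through 32.8% to 24.2% in macrophage-like cells. The intervals of neighbouring days do not meet in either class for either gene, which concerns counting error alone. Shares of *Atp5g2* stayed between 41.7% and 43.7% in fibroblast-like and between 48.0% and 53.4% in macrophage-like cells. In CPM, *Atp5g1* went from 138 through 173 to 176 in fibroblast-like and from 64.6 through 95.8 to 147 in macrophage-like cells, and *Atp5g3* from 339 through 170 to 141 and from 236 through 164 to 149.

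A higher *Atp5g1* share and a lower *Atp5g3* share in the later library were also seen inside most clusters, whose making did not use these genes. All clusters of a day came from 1 library, so they are not replicates, and a difference between whole libraries was not separated. The *Atp5g1* share was higher on Day 7 than on Day 3 in 8 of 8 named clusters with at least 100 cells on both days, 1 of them (neutrophil-like cluster 8) with 10 c-subunit UMIs on Day 3. From Day 7 to Day 14 it was higher in 10 of 11, with shares of 15.1 to 29.2% on Day 7 and 18.7 to 32.8% on Day 14, and the exception was fibroblast-like cluster 1 (26.4% and 25.5%). The *Atp5g3* share was lower in 7 of 8 and in 10 of 11 clusters. The *Atp5g2* share was lower in 7 of 8 clusters on Day 7 than on Day 3, then higher in 9 of 11 on Day 14. From Day 3 to Day 7 it went from 53.4% to 45.4% in macrophage-like cluster 3, where *Atp5g3* went from 36.4% to 34.9%. Fibroblast-like cluster 20 was the exception at that step, with *Atp5g2* at 43.3% and 44.4%. The promoters of these genes, printed above, differ in the NRF1-type letters, and no relation to the counts was tested.

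**Figure D3:**
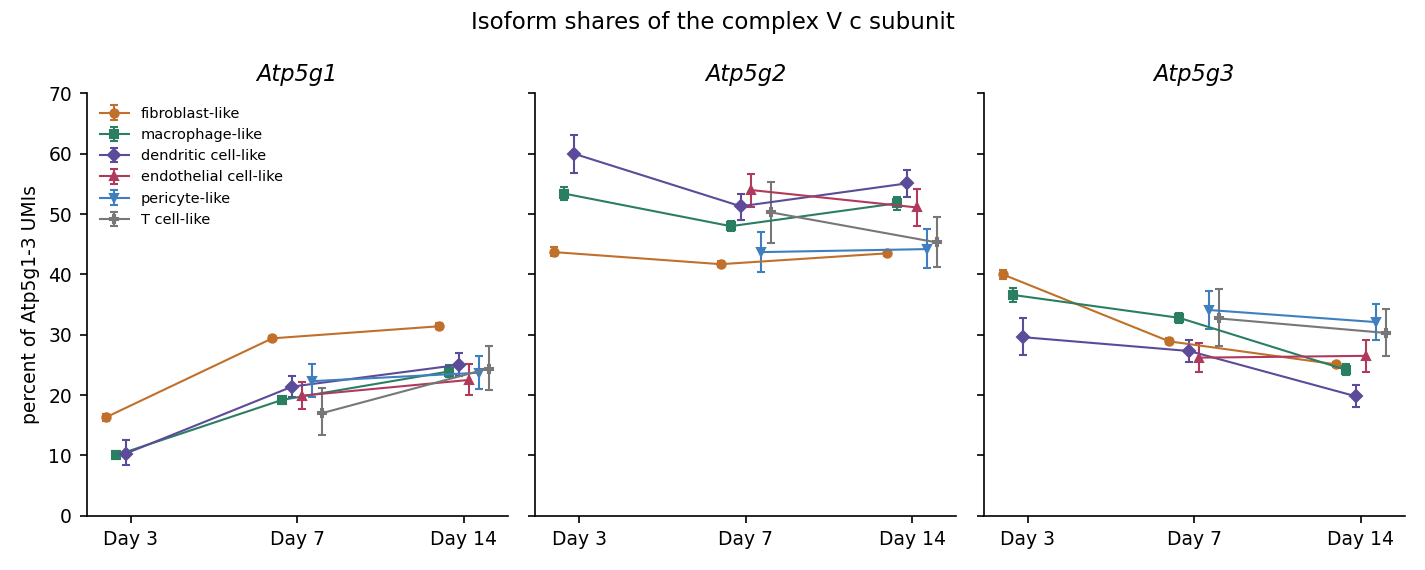
Share of c-subunit UMIs from Atp5g1, Atp5g2 and Atp5g3 (percent) in the Day 3, Day 7 and Day 14 libraries, with lines for 6 cell classes and 95% binomial intervals; classes under 20 cells in a library have no point. The Atp5g1 share goes from 16.3% to 31.4% in fibroblast-like and from 10.0% to 23.9% in macrophage-like cells, and the Atp5g3 share goes down.

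Scarce tissue isoforms of complex IV marked small groups of cells. *Cox4i2*, the isoform of subunit 4 known from lung and from hypoxia, was at most 2.82 CPM in fibroblast-like and 0.92 CPM in macrophage-like cells. In pericyte-like cells (cluster 19, led by *Rgs5* and *Notch3*) it stood at 138 CPM on Day 7 and 220 CPM on Day 14, which was 21.9% and 35.8% of the *Cox4i1* and *Cox4i2* UMIs. There, 38.6% (31.5 to 46.0%) of cells held a *Cox4i2* UMI on Day 7, against 0.103% (0.0630 to 0.159%) of all other cells, at median depths of 5648 and 3208 UMIs. On Day 14 the shares were 40.1% and 1.06% at 3936 and 6087 UMIs. The share was thus higher in pericyte-like cells on both days. The fibroblast-like log2 ratios of *Cox4i2*, -3.58 for Day 7 over Day 3 and 3.13 for Day 14 over Day 7, rest on 56, 15 and 148 UMIs, of which cluster 9 carried 84 (6.24 CPM) and cluster 16 carried 48 (22.4 CPM) on Day 14.

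*Cox6a2*, the heart and muscle isoform of subunit 6a, was found in cluster 26, which was named dendritic cell-like and was led by *Siglech*, *Ccr9* and *Irf8*, genes of plasmacytoid dendritic cells. Its 97 cells of Day 7 held 711 CPM and its 32 cells of Day 14 held 971 CPM, while the next cluster held 4.55 and 7.50 CPM. A *Cox6a2* UMI was seen in 67.0% (56.7 to 76.2%) and 75.0% (56.6 to 88.5%) of these cells, against 0.457% and 0.556% of all others. This cluster carried 67.1% and 63.4% of all *Cox6a2* UMIs of the cells used. Skeletal muscle markers summed to 1.25, 2.46 and 4.36 CPM in the dendritic cell-like class on Days 3, 7 and 14. Cluster 26 was a small part of that class (97 of 1182 cells on Day 7 and 32 of 502 on Day 14). The markers were not summed for cluster 26 alone, so these values do not decide whether it held muscle RNA. *Cox7a1*, another muscle isoform, stood at 12.6, 7.24 and 2.61 CPM in macrophage-like cells, below the 9.20 and 5.01 CPM of pericyte-like cells on Days 7 and 14. It made up 2.38%, 1.76% and 0.556% of the *Cox7a* family UMIs of macrophage-like cells. In fibroblast-like cells it stood at 4.68, 0.97 and 1.25 CPM. *Cox7a2* and *Cox7a2l*, a subunit of respiratory supercomplexes, supplied the rest of the family, and *Cox7a2l* made up 51.2%, 53.9% and 49.5% of it in macrophage-like and 36.5%, 47.0% and 44.9% in fibroblast-like cells.

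*Cox6b2*, the testis isoform of subunit 6b, was scarce in every class on Day 3 and higher in each later library of fibroblast-like and dendritic cell-like cells. Fibroblast-like cells held 1.21, 3.13 and 8.01 CPM, macrophage-like cells 3.58, 3.52 and 7.27 CPM and dendritic cell-like cells 1.88, 15.3 and 35.3 CPM. The Day 14 fibroblast-like level rests on cluster 16, which carried 331 of its 577 UMIs, while the level was lower on Day 14 than on Day 7 in cluster 0 (3.54 and 2.35 CPM) and cluster 1 (2.69 and 1.43 CPM). *Cox6b1* held 97.4% to 99.6% of the family in fibroblast-like cells as a whole. In cluster 16 on Day 14, however, *Cox6b2* held 48.1% (44.3 to 51.9%) of the 688 family UMIs. On Day 14, 154 CPM of *Cox6b2* was found in fibroblast-like cluster 16, led by *Prlr*, *Bmp4*, *Wif1* and *Lef1* (the last known from the dermal papilla of the hair follicle), and a UMI was seen in 29.7% (26.4 to 33.2%) of its 723 cells against 3.53% (3.22 to 3.87%) of all others, which were deeper (6284 against 2353 median UMIs). The next cluster was dendritic cell-like cluster 12 with 42.5 CPM. On Day 7 cluster 16 had 4 *Cox6b2* UMIs in 63 cells. Cluster 16 was named from 6 of the 8 fibroblast markers, whereas each other fibroblast-like cluster met 8 of 8. The study took *Bmp4* as the marker of a separate mesenchymal cell cluster, so the fibroblast-like name is weaker for cluster 16. *Cox8b*, outside the members, reached 0.708 CPM in fibroblast-like cells of Day 14, and *Cox8c* was not detected.

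**Figure D4:**
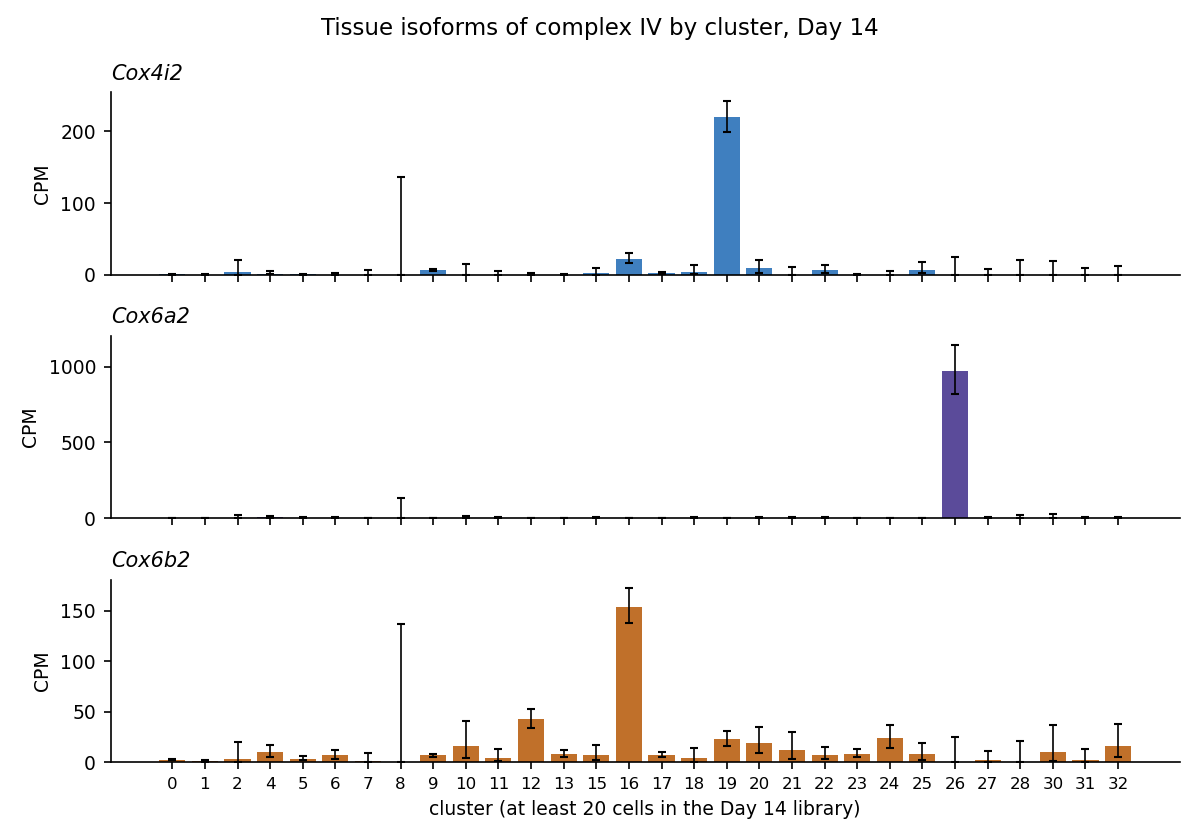
CPM of the tissue isoforms Cox4i2, Cox6a2 and Cox6b2 in each cluster with at least 20 cells of the Day 14 library, with 95% Poisson intervals. Cox4i2 peaks in pericyte-like cluster 19 (220 CPM), Cox6a2 in cluster 26 (971 CPM) and Cox6b2 in fibroblast-like cluster 16 (154 CPM); cluster 8 has few UMIs and a wide interval.

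The 2 main classes were also compared with each other within each library. The log2 ratio of the members' sum in fibroblast-like over macrophage-like cells on Days 3, 7 and 14 was 0.02 (0.02 to 0.03), 0.08 (0.07 to 0.09) and -0.16 (-0.16 to -0.15). The Day 3 ratio turned to -0.01 relative to the median of all genes and the Day 14 ratio to 0.01 without the 50 most abundant genes, so no direction is given for them. On Day 3, 9 of 80 members were at least 1.5-fold higher in fibroblast-like cells (32.2% of all genes) and 6 were lower (30.9%). On Day 7, 4 of 79 were higher (28.7%) and 2 were lower (30.6%). On Day 14, 1 of 80 was higher (26.3%) and 8 were lower (33.0%). The higher members of Day 3 were led by *Cox4i2* (2.82 against 0.92 CPM), *Ndufv1* (40.5 against 18.4) and *Atp5g1* (138 against 64.6). Of these, *Cox4i2* rests on 56 against 11 UMIs. Those of Day 7 were led by *Atp5g1* (173 against 95.8), *Ndufv1* (38.0 against 22.6) and *Ndufa13* (279 against 174). On Day 14 the member past the size was *Atp5s* (3.14 against 1.88), a coupling factor of low level with 226 against 23 UMIs. *Ndufv1* (35.5 against 26.1) and *Ndufs5* (85.9 against 63.9) followed within 1.5-fold. The members lower in fibroblast-like cells were led by *Cox6b2*, *Cox7a1* and *Cox7a2l* on Day 3, by *Cox7a1* and *Cox5a* on Day 7 (with *Sdha* next, within 1.5-fold) and by *Cox6a2*, *Cox5a* and *Cox7a1* on Day 14. Few UMIs lie behind *Cox6b2* on Day 3 (24 against 43) and *Cox6a2* on Day 14 (25 against 46).

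The clusters of a class were also compared with each other within the Day 7 and Day 14 libraries. The ratios given are of the highest over the lowest cluster with at least 100 cells, so they are not comparable with ratios between days of a whole class. Among macrophage-like clusters of Day 7 the members' sum was lowest in cluster 5, at 8757 CPM. This cluster was led by *Ccl8*, *Mrc1* and *C1qc*. The sum was highest in cluster 24 (led by *Mki67* and *Top2a*, genes of dividing cells), at 15402 CPM, a ratio of 1.76. On Day 14 the same clusters stood at 10167 and 18919 CPM, a ratio of 1.86. Cluster 24 was small, with 122 of 8496 macrophage-like cells on Day 7 and 105 of 2979 on Day 14. Cluster 13, led by *Retnla* (also among the top genes of cluster 24) and *Ear2* with antigen presentation genes, stood at 14187 and 16935 CPM. In fibroblast-like cells of Day 7 the range was narrower, from 9984 CPM in cluster 0 (led by *Mgp*, *Cilp* and *Eln*) to 13855 CPM in cluster 11 (led by *Tnn* and *Acta2*, genes of contractile fibroblasts), a ratio of 1.39. On Day 14 it was 10769 to 13389 CPM, a ratio of 1.24.

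Pairs of these clusters were compared member by member. Clusters 24, 13 and 11 were chosen for high and clusters 5, 6 and 0 for low sums of these same members, so the counts describe how many members shared the difference, and nothing is read from them against all genes. In cluster 24, 62 of 76 members compared were at least 1.5-fold higher than in cluster 5 on Day 7 (33.6% of all genes were) and 65 of 77 on Day 14 (33.2%). None was 1.5-fold lower on either day, and the members' median log2 ratios were 0.86 and 0.92, beside 0.23 and 0.21 for all genes. In cluster 13, 50 of 76 were higher than in cluster 5 on Day 7 (18.5% of all genes) and 51 of 77 on Day 14 (16.9%), with medians of 0.70 and 0.73 against -0.02 and -0.09. Over cluster 6, cluster 13 had 33 of 76 members higher on Day 7 (17.3% of all genes) and 46 of 77 on Day 14 (13.1%). The mt- genes did not go along with the pairs over cluster 5: their medians were -0.08 and -0.33 for cluster 24 and -0.13 and -0.34 for cluster 13. Cytosolic ribosomal protein genes did, with medians between 0.69 and 0.77, and so did glycolysis genes, with medians between 0.51 and 0.85. The high clusters were also deeper (5229 and 4098 median UMIs against 2825 on Day 7), and the part of depth in these ratios was not tested. In cluster 11, 23 of 78 members were 1.5-fold higher than in cluster 0 on Day 7 (20.1% of all genes), with a median of 0.51 against 0.20. On Day 3 the dividing fibroblast-like cluster 20 had 0 of 79 members 1.5-fold higher (11.5% of all genes) and 2 lower (6.25%) than cluster 7. On Day 7 it had 5 of 78 higher (22.3%) and 0 lower (6.03%) than cluster 7. The medians were 0.15 and 0.27. Over cluster 0, cluster 20 had 29 of 78 higher on Day 7 (28.1%), with a median of 0.49.

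**Figure D5:**
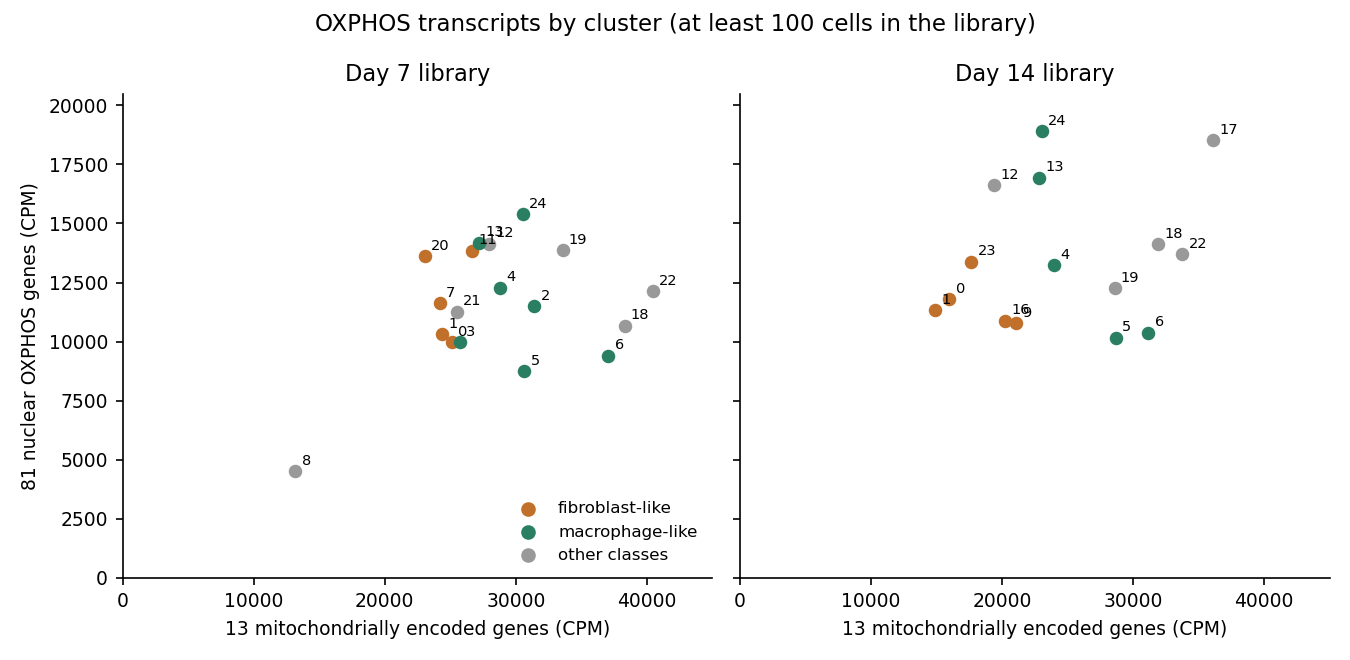
Summed CPM of the 81 nuclear OXPHOS genes against that of the 13 mitochondrially encoded genes for named clusters with at least 100 cells in the Day 7 (left) or Day 14 (right) library, coloured by class and labelled by cluster number. Macrophage-like clusters spread from 8757 to 15402 CPM on Day 7 and from 10167 to 18919 CPM on Day 14 on the vertical axis, and clusters lie farther left on Day 14.

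Differences between days were then taken within clusters, since the make-up of the classes changed. All clusters of a day share its library, so they are not replicates of a difference between days. From Day 7 to Day 14 the members' sum was higher in 10 of 11 named clusters with at least 100 cells on both days, and in 9 of 11 without the 50 most abundant genes. The 5 macrophage-like clusters had log2 ratios of 0.11 to 0.30, but that of cluster 4 turned from 0.11 to -0.02 without the 50 most abundant genes. Fibroblast-like clusters 0 and 1 had ratios of 0.24 and 0.14 (0.13 and 0.02 without those genes), although the ratio of the whole class was -0.02. The exception on the main scale was the pericyte-like cluster, at -0.18 (-0.21 to -0.15), which became 0.04 relative to the median of all its genes. The sum of the mt- genes was lower on Day 14 in 11 of 11 clusters on the main scale. In macrophage-like cluster 5 its log2 ratio (-0.10) lay above the median of all genes (-0.11). From Day 3 to Day 7 the members' sum was lower in 4 of 4 macrophage-like clusters, but higher in 3 of the 4 without the 50 most abundant genes. The members' sum was higher in 2 of 2 fibroblast-like clusters (0.03 and 0.10) and in 4 of all 8 named clusters, with 0.26 in dendritic cell-like cluster 12. The mt- sum was lower in 8 of 8 named clusters on the main scale. In neutrophil-like cluster 8 its log2 ratio (-0.14) lay above the median of all genes (-0.55).

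The mt- genes themselves did not move as 1 group. *mt-Co1*, the catalytic subunit of complex IV, stood at 8159, 4552 and 2992 CPM in fibroblast-like and 10030, 6576 and 5549 CPM in macrophage-like cells on Days 3, 7 and 14. *mt-Co2* (4874, 3349 and 1972 CPM in fibroblast-like cells), *mt-Co3* (6663, 5413 and 3295), *mt-Atp6* (7200, 4822 and 2793) and *mt-Nd3* (594, 426 and 270) were also lower at each step, as were *mt-Nd1* (2288, 1361 and 1182) and *mt-Cytb* (2856, 1767 and 1485). In the same class the complex I genes *mt-Nd2* (795, 722 and 784 CPM), *mt-Nd4* (2025, 1758 and 1732), *mt-Nd5* (275, 294 and 257) and *mt-Nd6* (31.0, 29.5 and 21.4) stayed within 1.5-fold. In macrophage-like cells the genes higher on Day 14 than on Day 7 were *mt-Nd1* (1447 and 1682 CPM), *mt-Nd2* (929 and 1137), *mt-Nd4* (2192 and 2411), *mt-Nd5* (444 and 525), *mt-Nd4l*, *mt-Atp8* and, except without the 50 most abundant genes, *mt-Cytb* (1443 and 1522). The median log2 ratio of the 13 genes there was 0.08, while the abundant *mt-Co1*, *mt-Co2*, *mt-Co3* and *mt-Atp6* were lower. *mt-Atp8* was higher on Day 7 than on Day 3, with a log2 ratio of 3.07 in macrophage-like cells (21.7, 183 and 202 CPM) and 1.80 in fibroblast-like cells (32.8, 114 and 95.4 CPM), and *mt-Nd4l* with 1.19 and 0.90. Both overlap a neighbour on the same strand (*mt-Atp8* and *mt-Atp6* by 43 bases, *mt-Nd4l* and *mt-Nd4* by 7), *mt-Atp6* and *mt-Co3* by 1 base, and *mt-Nd5* and *mt-Nd6* lie on opposite strands with 14 shared bases, so the counts of these genes are uncertain. In macrophage-like cells of Days 3 and 7 the neighbour *mt-Atp6* stood at 6436 and 5544 CPM and *mt-Nd4* at 2272 and 2192 CPM. The part of how reads were assigned to these genes was not tested.

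Other genes of the pathway were read from fixed lists. Of 29 assembly factor genes compared, 4 were 1.5-fold higher and 1 lower in macrophage-like cells on Day 7 than on Day 3, and 0 higher and 3 lower on Day 14 than on Day 7. In fibroblast-like cells 7 were higher and 5 lower, then 0 higher and 4 lower. The shares of all genes for the same comparisons, given above with the members' counts, were 14.0% and 15.8%, then 12% and 16.1%, in macrophage-like cells and 15% and 24.1%, then 12% and 20%, in fibroblast-like cells. The list's own shares were 13.8% and 3.45%, then 0 and 10.3%, in macrophage-like cells and 24.1% and 17.2%, then 0 and 13.8%, in fibroblast-like cells. *Cox17*, the copper chaperone of complex IV, stood at 141, 45.4 and 26.9 CPM in fibroblast-like and 226, 111 and 101 CPM in macrophage-like cells, lower at each step. *Ndufaf8* (21.5, 45.0 and 51.3 CPM in fibroblast-like and 28.2, 44.3 and 53.4 CPM in macrophage-like cells) and *Cox14* (51.8, 91.0 and 95.6 CPM, and 79.6, 95.8 and 121 CPM) were higher at each step. Of 11 regulators compared in macrophage-like cells 2 were higher and 0 lower on Day 7 than on Day 3, and 0 higher and 2 lower on Day 14 than on Day 7. In fibroblast-like cells 0 of 11 were higher and 1 lower, then 0 of 12 higher and 4 lower. Relative to the all-gene medians, the lower count for Day 14 over Day 7 became 1 in each class. The fibroblast-like median of the list at that step was -0.16, the same as that of all genes. For macrophage-like Day 7 over Day 3, 6 of the 11 regulators were above 0, unlike *Nrf1* and *Esrra*, which are given next. *Nrf1* went from 22.8 through 16.7 to 12.9 CPM in fibroblast-like and from 33.9 through 25.8 to 20.8 CPM in macrophage-like cells, *Esrra*, a nuclear receptor of mitochondrial genes, from 17.0 through 11.9 to 7.15 CPM and from 35.6 through 24.9 to 15.7 CPM, and *Ppargc1a*, the best known coactivator of the pathway, was at or below 0.595 CPM in fibroblast-like cells and had no UMI in macrophage-like cells.

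Electron carriers and the genes left out by name gave further values. *Cycs*, cytochrome c, stood at 134, 63.4 and 58.1 CPM in fibroblast-like and 94.1, 65.0 and 104 CPM in macrophage-like cells. *Ucp2*, an inner membrane carrier, stood at 611, 604 and 647 CPM in macrophage-like and 814, 673 and 680 CPM in dendritic cell-like cells, against 7.25, 15.9 and 16 CPM in fibroblast-like cells. *Atpif1*, the inhibitor of the ATP synthase, stood at 190, 315 and 252 CPM and at 171, 324 and 358 CPM. *Usmg5*, a small ATP synthase subunit, stood at 196, 129 and 123 CPM and at 211, 126 and 149 CPM. *Ndufb1-ps*, named as a pseudogene, stood at 152, 114 and 90.0 CPM and at 309, 195 and 141 CPM. *Ndufa4l2*, a hypoxia-induced relative of *Ndufa4*, held 233, 66.6 and 113 CPM in fibroblast-like cells and at most 4.90 CPM in macrophage-like cells.

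Glycolysis genes moved far more than the members in the same cells. Their sum was 7128, 2861 and 1776 CPM in fibroblast-like and 5560, 3616 and 2068 CPM in macrophage-like cells on Days 3, 7 and 14. In fibroblast-like cells 12 of 16 compared were 1.5-fold lower for Day 7 over Day 3 and 12 of 17 for Day 14 over Day 7, against 13 and 5 of 80 members and 24.1% and 20% of all genes. In macrophage-like cells 10 of 17 were lower at each step, against 1 and 2 of 80 members and 15.8% and 16.1% of all genes. *Pgk1*, a glycolytic kinase that makes ATP, stood at 835, 137 and 54.7 CPM in fibroblast-like and 725, 220 and 87.2 CPM in macrophage-like cells, and *Ldha*, which turns pyruvate into lactate, at 754, 217 and 138 CPM and at 448, 262 and 181 CPM. Cytosolic ribosomal protein genes, another set of abundant short transcripts, had median log2 ratios of 0.01 and 0.46 in macrophage-like cells, where 30 of 83 were 1.5-fold higher on Day 14 than on Day 7 (12% of all genes were), and of -0.14 and 0.01 in fibroblast-like cells. The members' median of 0.20 in that macrophage-like comparison lay below that of the ribosomal protein genes and above that of all genes.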

How the data were processed

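The authors deposited raw UMI counts per gene and barcode for 3 libraries (10x Chromium 3′ chemistry), made with Cell Ranger 6.0.0 on mm10 per the submitters' processing notes. Day 3, Day 7 and Day 14 were 1 library each, so no test was run. Barcodes with at least 200 genes, 500 UMIs and at most 10% mt- UMIs were kept (minimum depth in the deposited counts 500 to 501 UMIs). Simulated doublets scored over 50 neighbours marked 92, 1978 and 962 barcodes, which were removed. Clustering (2000 variable genes, 30 components, 15 neighbours, Leiden resolution 1, leidenalg 0.10.2, scikit-learn 1.9.0) used none of the members. A cluster was named from at least 3 markers, and 5 clusters stayed unnamed, 1 led by *Cd207* by a decision made after clusters were seen. CPM and ratios were computed with numpy 2.4.6 and scipy 1.17.1. Interval coverage was checked on simulated Poisson counts, for which the intervals are made. That check holds no variation between cells or libraries and covers counting error alone. Ratios needed 10 UMIs in both groups, and 1.5-fold was the size counted. Symbols matched 32158 of 32285 Ensembl IDs.

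Named genes were the 3 highest and 3 lowest members of each comparison, a set fixed by role in each complex, and the isoform families. The members and all lists were chosen with earlier results of these data known. Cluster pairs and shares within clusters were chosen after values were seen, as were the genes named from the assembly factor, regulator, carrier and glycolysis lists. Alternatives changed the scaling, the filters on genes, mt- UMIs and doublets, the resolution and the class assignment. 1 gene taken by the rule for named genes is not reported here.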

Additional observations from a re-analysis of the deposited data

Results flagged for a closer look

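Between Days 7 and 14 the members' sum had log2 ratios of opposite sign in the main classes, 0.21 in macrophage-like and -0.02 in fibroblast-like cells, but the second turned to 0.13 relative to the median of ratios and to 0.02 with the mean of each cell's CPM. This difference was not tested, since each day was 1 library. Fibroblast-like over macrophage-like cells gave 0.08 on Day 7 and -0.16 on Day 14, also not tested, and the Day 14 ratio turned to 0.01 without the 50 most abundant genes and to 0.02 at resolution 0.5, so it has no stable direction.

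Cells outside the comparisons held member UMIs too. The unnamed clusters held 18320, 8227 and 12792 CPM on Days 3, 7 and 14. Barcodes removed for over 10% mt- UMIs (704, 1352 and 2134, with median depths of 1768, 876 and 794 UMIs) held 7133, 5530 and 4450 CPM. *Ndufb1-ps*, outside the members by its name, had 36527 UMIs over the 3 libraries.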

How the results depend on the processing

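Of 122 values taken under an alternative, 52 stayed within the counting interval or within 1.5 times, 62 moved and 8 turned sign. The cause was not tested. Those that stayed include the nuclear to mt- ratios under the scaling alternatives, which cannot change them. The sums below are log2 ratios for macrophage-like Day 7 over Day 3 (-0.08) and Day 14 over Day 7 (0.21), the same pairs in fibroblast-like cells (-0.02 and -0.02), and fibroblast-like over macrophage-like cells on Days 3, 7 and 14 (0.02, 0.08 and -0.16). Without the 50 most abundant genes the macrophage-like sums became 0.18 and 0.10, the first fibroblast-like sum 0.20, and the class ratios 0.11, 0.13 and 0.01. Relative to the median of ratios they became -0.04 and 0.32, 0.12 and 0.13, and -0.01, 0.13 and -0.03. With the mean of each cell's CPM they became -0.11 and 0.16, -0.06 and 0.02, and 0.08, 0.13 and -0.01. With at most 5% mt- UMIs the first sum of each class became -0.05 and 0.00, and the class ratios 0.00, 0.05 and -0.18. With at most 20% the class ratios of Days 3 and 14 became 0.04 and -0.14. With doublets kept, the second fibroblast-like sum became -0.01 and the Day 14 class ratio -0.13. At resolution 0.5 the macrophage-like sums became -0.13 and 0.08, and the class ratios of Days 7 and 14 became 0.13 and 0.02. With the class set per cell they became -0.13 and 0.10, -0.04 and -0.05, and 0.04, 0.13 and -0.01.

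The difference in the nuclear to mt- ratio (0.44 macrophage-like, 0.51 fibroblast-like, 0.48 between classes on Day 14) became 0.32, 0.49 and 0.61 with the mean of each cell's CPM. It became 0.53 (fibroblast-like) and 0.32 (between classes) at 5% mt-, 0.41, 0.50 and 0.55 at 20%, 0.42, 0.54 and 0.50 with doublets kept, 0.25 (macrophage-like) and 0.75 (between classes) at resolution 0.5, 0.31, 0.49 and 0.65 with the class set per cell, and 0.50 (between classes) with at least 500 genes per cell.

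Member counts past 1.5-fold moved as follows. With no UMI minimum, 2 members were lower in macrophage-like cells on Day 7 than on Day 3. With at least 50 UMIs, 1 was lower in macrophage-like and 1 higher in fibroblast-like cells on Day 14 than on Day 7. Without the 50 most abundant genes, 12 were higher and 0 lower in macrophage-like and 13 higher and 6 lower in fibroblast-like cells on Day 7 than on Day 3, and 5 were lower in macrophage-like cells on Day 14. Relative to the median of ratios, 8 were higher in macrophage-like cells on Day 14, and in fibroblast-like cells 10 were higher and 6 lower on Day 7 and 6 higher and 1 lower on Day 14. Shares of all genes were not computed for the changed UMI minimum. They were also not computed for macrophage-like Day 14 over Day 7 under the other scalings. Nothing is read from those counts against all genes. No paired analysis was possible because each day was 1 library. Intervals cover counting error only.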
